A study of Saccharomyces cerevisiae with 6 samples.

Results

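The genes described here encode 31 aminoacyl-tRNA synthetases of budding yeast (Saccharomyces cerevisiae), of 6151 reading frames measured in every condition. They were taken by name, 13 for enzymes of the mitochondrial matrix and 18 for enzymes of the cytosol or of both compartments, and all 31 had a value in all 6 conditions. An aminoacyl-tRNA synthetase joins one amino acid to its tRNAs, the step that sets the genetic code before the ribosome is reached. Yeast translates in the cytosol and, separately, in mitochondria, where a small set of respiratory subunits is made with tRNAs encoded by mtDNA. All synthetases are encoded in the nucleus, and most amino acids have a cytosolic enzyme and a separate imported one. ALA1, GRS1, HTS1 and VAS1 each supply both compartments from a single gene, and the GUS1 product is also imported into mitochondria. In the cytosol, uncharged tRNA is sensed by the kinase Gcn2, which raises translation of the transcription factor Gcn4.

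RNA from treated cells was compared with RNA from control cells of the same strain on 2-colour arrays, and every gene has a single treated-over-control ratio in each condition. Cells of strain UCC3980, homozygous for ATP1-111 (ATP1-111/ATP1-111), were measured 27 h after mtDNA loss against the same cells with mtDNA. ATP1-111 is an allele of ATP1, which encodes a subunit of the mitochondrial ATP synthase. Strain UCC3970, whose NAR1 expression depended on estradiol, was measured 27 h after transfer from 50 to 2 nM estradiol, against cells kept at 50 nM. NAR1 acts in cytosolic iron-sulfur cluster assembly. Wild type (WT) cells of strain UCC1899 were measured 3, 11, 19 and 27 h after mtDNA loss against WT cells with mtDNA. Loss of mtDNA was brought about by 6 h in ethidium bromide at 30 µg/ml, and all cells grew in YEPD, a rich glucose medium, at low density. No treatment of the controls with ethidium bromide is described in the labels, so the drug and the loss of mtDNA cannot be told apart here. The NAR1 controls stayed at 50 nM estradiol, so the change in estradiol and the repression of NAR1 cannot be told apart either.

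The ratios had been averaged by the authors, over 5 arrays for ATP1-111 and 6 for each other condition, with 3 biological replicates behind them. Replicate spread is not part of the averaged table, which leaves each ratio without an error of its own. Precision is limited by the number of biological replicates, not by the number of arrays. On the log2 scale the SD between spots of the same gene, in ratios already averaged over arrays, was 0.151 to 0.239. It came from 13 genes spotted 2 times, of which 0 were synthetase genes. Standard errors (SE) below come from limma, with the scatter of the 4 WT time points about a straight line as the spread. A call is an adjusted p under 0.05 (Benjamini-Hochberg over 6151 reading frames). The NAR1 transcript itself had a ratio of 0.031 after estradiol withdrawal and of 0.979 in ATP1-111 cells, against 1.42, 1.63, 1.84 and 2.25 in WT cells at 3, 11, 19 and 27 h.

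After mtDNA loss in WT cells the mitochondrial and the cytosolic synthetase transcripts moved apart. The median log2 ratio of the 13 mitochondrial genes was -0.19 at 3 h, 0.13 at 11 h, 0.22 at 19 h and 0.13 at 27 h. That of the 18 cytosolic or dual genes was 0.07, -0.23, -0.39 and -0.39 at the same times, and that of all reading frames was -0.01, -0.01, -0.04 and -0.06. The mitochondrial genes thus began below the cytosolic ones and lay above them from 11 h on. At 3 h 11 of 13 mitochondrial genes were below the control and 14 of 18 cytosolic genes above it, where 50.8% of all reading frames were below and 49.0% above. At 27 h 9 of 13 mitochondrial genes were above the control and 17 of 18 cytosolic genes below it, against 44.5% above and 55.4% below over all reading frames.

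The crossing took place between the first 2 time points. Between 3 and 11 h the ratio became higher for 12 of 13 mitochondrial genes, where 48.0% of all reading frames did so. Over the same step it became lower for 18 of 18 cytosolic genes, where 51.7% of all did so. At every later time point 12 mitochondrial genes stood above their own 3 h value (31.9% of all reading frames did) and 17 cytosolic genes stood below it (38.3% of all). The exceptions were MST1, for mitochondrial threonyl-tRNA synthetase, which was lowest at 27 h, and HTS1, for histidyl-tRNA synthetase, which was highest at 19 h.

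**Figure D1:**
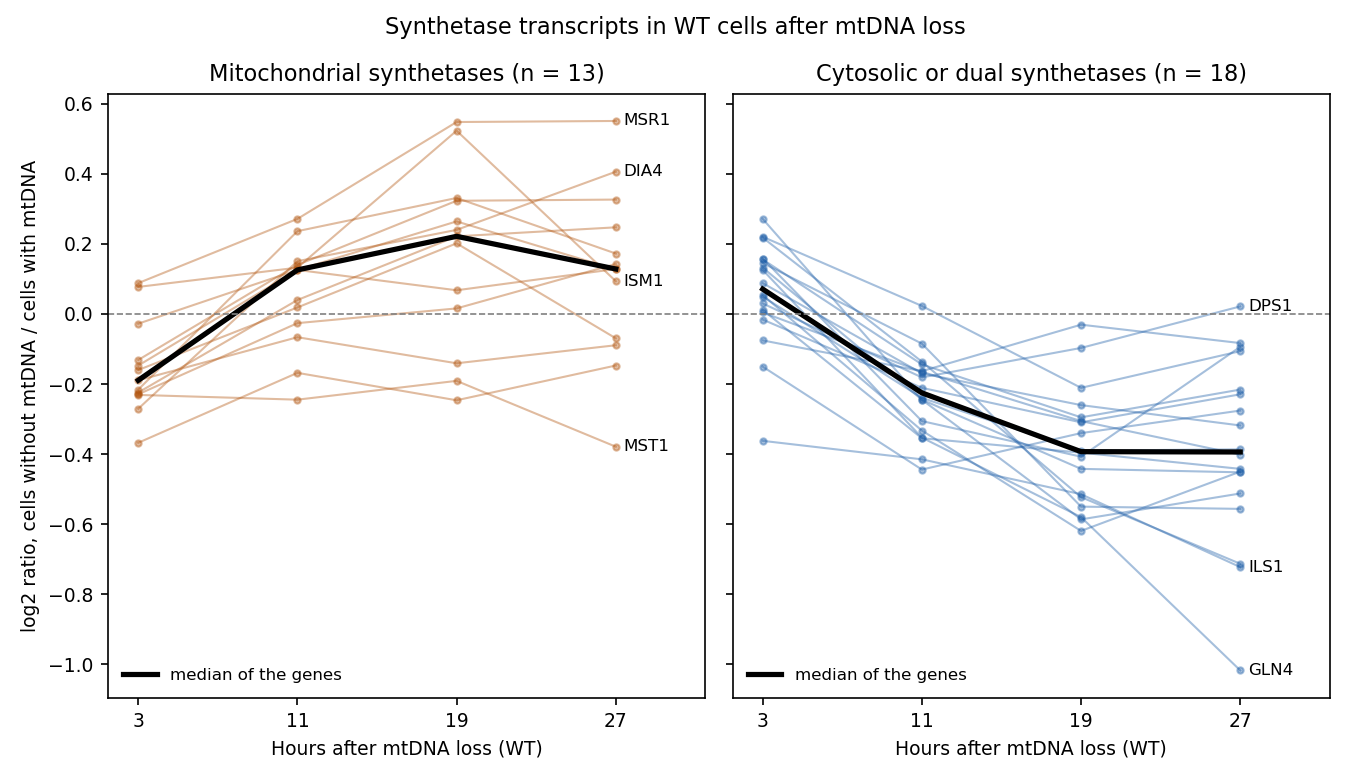
Log2 ratio of each synthetase transcript in WT cells without mtDNA over WT cells with mtDNA, against hours after mtDNA loss, for 13 mitochondrial genes (left) and 18 cytosolic or dual genes (right). Thin lines are single genes, the thick line is their median and the dashed line marks no difference from the control. The mitochondrial median is -0.19 at 3 h and 0.13 at 27 h, and the cytosolic one 0.07 at 3 h and -0.39 at 27 h.

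These shifts were small for single genes. Of the cytosolic or dual genes 2 fell with time by limma's test of the slope and 0 rose, and of the mitochondrial genes 0 rose and 0 fell. Among all reading frames 4.63% rose and 2.62% fell, against 0% and 6.45% of the 31 synthetase genes. At an unadjusted p under 0.05, 4 of 13 mitochondrial genes had a rising slope and 0 a falling one. Of the 18 cytosolic genes 8 had a falling slope and 0 a rising one. At that threshold 857 of all 6151 reading frames rose and 998 fell. The sign of the fitted change, regardless of the test, was positive for 12 of 13 mitochondrial genes and negative for 16 of 18 cytosolic genes. Without the 3 h column, it was positive for 8 mitochondrial genes and negative for 14 cytosolic ones. No count over all reading frames is given for that fit. With the 3 h column kept, the fitted change was positive for 2791 and negative for 3360 of all reading frames. The median fitted change over 24 h was 0.23 for the mitochondrial genes, -0.40 for the cytosolic ones and -0.05 for all reading frames.

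GLN4 encodes glutaminyl-tRNA synthetase, a cytosolic enzyme with no mitochondrial counterpart in yeast, whose mitochondria make glutaminyl-tRNA by amidation of glutamyl-tRNA. In WT cells its ratio was 1.09, 0.783, 0.669 and 0.494 at 3, 11, 19 and 27 h, a step down at each time. GLN4 fell by 1.10 on the log2 scale over the fitted 24 h (SE 0.15, limma adjusted p = 0.0262). At 27 h it was the lowest synthetase transcript, and 2.63% of all reading frames were at or below its ratio. THS1, for cytosolic threonyl-tRNA synthetase, had ratios of 1.16, 0.910, 0.696 and 0.610 at the 4 times, again falling at each step. THS1 fell by 0.95 on the log2 scale (SE 0.15, limma adjusted p = 0.0318). Neither call held with all columns scaled to a common spread (limma adjusted p = 0.167 for GLN4 and 0.165 for THS1) or without the 3 h, 19 h or 27 h column, and that of THS1 was also lost without 11 h.

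The other cytosolic genes did not pass the test. ALA1, for the alanyl-tRNA synthetase of both compartments, had ratios of 1.21, 0.844, 0.666 and 0.701 (fitted log2 change -0.81, SE 0.22, limma adjusted p = 0.0869). WRS1, for tryptophanyl-tRNA synthetase, had 1.11, 0.943, 0.683 and 0.680 (-0.77, SE 0.18, limma adjusted p = 0.0639). Both were near their lowest by 19 h and changed little after it. CDC60, for leucyl-tRNA synthetase, had ratios of 1.10, 0.844, 0.736 and 0.731 at the 4 times. DED81, for asparaginyl-tRNA synthetase, had 1.04, 0.794, 0.651 and 0.732. ILS1, for isoleucyl-tRNA synthetase, differed in its start, with a ratio already at 0.778 at 3 h and then 0.750, 0.700 and 0.606. It was the lowest cytosolic synthetase transcript at 3 h and the second lowest, after GLN4, at 27 h.

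A further group of cytosolic genes ended between 0.736 and 0.861. Ratios at 3 and 27 h were 1.04 and 0.765 for SES1 (seryl-tRNA synthetase) and 1.00 and 0.757 for TYS1 (tyrosyl-tRNA synthetase). They were 1.06 and 0.802 for GRS1 (glycyl-tRNA synthetase) and 1.11 and 0.861 for VAS1 (valyl-tRNA synthetase). FRS2 and FRS1 encode the 2 kinds of subunit of cytosolic phenylalanyl-tRNA synthetase, and their ratios at 27 h were 0.736 and 0.853. GUS1 (glutamyl-tRNA synthetase) stood at 0.901 at 3 h, 0.735 at 11 h and 0.826 at 27 h, lowest at 11 h. KRS1 (lysyl-tRNA synthetase) was lowest at 19 h, at 0.754, and stood at 0.937 at 27 h. MES1 (methionyl-tRNA synthetase), HTS1 and DPS1 (aspartyl-tRNA synthetase) ended nearest the control, at 0.929, 0.944 and 1.02. DPS1 was the only cytosolic gene above 1 at 27 h.

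Among the mitochondrial genes MSR1, for arginyl-tRNA synthetase, was highest, with ratios of 1.06, 1.21, 1.46 and 1.47 in WT cells at the 4 times (fitted log2 change 0.50, SE 0.16, limma adjusted p = 0.111). DIA4, for a mitochondrial seryl-tRNA synthetase, had 0.829, 1.11, 1.18 and 1.32 (0.64, SE 0.17, limma adjusted p = 0.0801). MSR1 was above the control throughout, whereas DIA4 started below it and had the largest fitted change of the mitochondrial genes. MSW1 (tryptophan) had ratios of 0.913, 1.10, 1.25 and 1.25. MSD1 (aspartate) had 0.856, 1.03, 1.17 and 1.19, and MSE1 (glutamate) had 0.853, 0.982, 1.01 and 1.10. These 5 genes were the only synthetase genes whose ratio went up at every step, 5 of 13 mitochondrial and 0 of 18 cytosolic genes, where 11.9% of all reading frames did. A ratio that went down at every step was seen in 0 mitochondrial and 8 cytosolic genes, and in 15.2% of all reading frames.

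Other mitochondrial genes peaked before 27 h. ISM1 (isoleucine) had ratios of 1.06, 1.10, 1.44 and 1.07, so its value at 19 h stood apart from its other 3. NAM2, whose leucyl-tRNA synthetase also takes part in splicing mitochondrial introns, had 0.895, 1.01, 1.15 and 0.953. MSF1 (phenylalanine) had 0.861, 1.18, 1.26 and 1.13, and MSK1 (lysine) had 0.981, 1.09, 1.20 and 1.09. All 4 were highest at 19 h. MSM1 (methionine) stood between 1.05 and 1.09 from 11 h on, after 0.903 at 3 h. MSY1 (tyrosine), SLM5 (asparagine) and MST1 (threonine) were below the control at all 4 times, between 0.769 and 0.955. Of these, MST1 had the only negative fitted change among mitochondrial genes (-0.12, SE 0.15, limma adjusted p = 0.645).

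**Figure D2:**
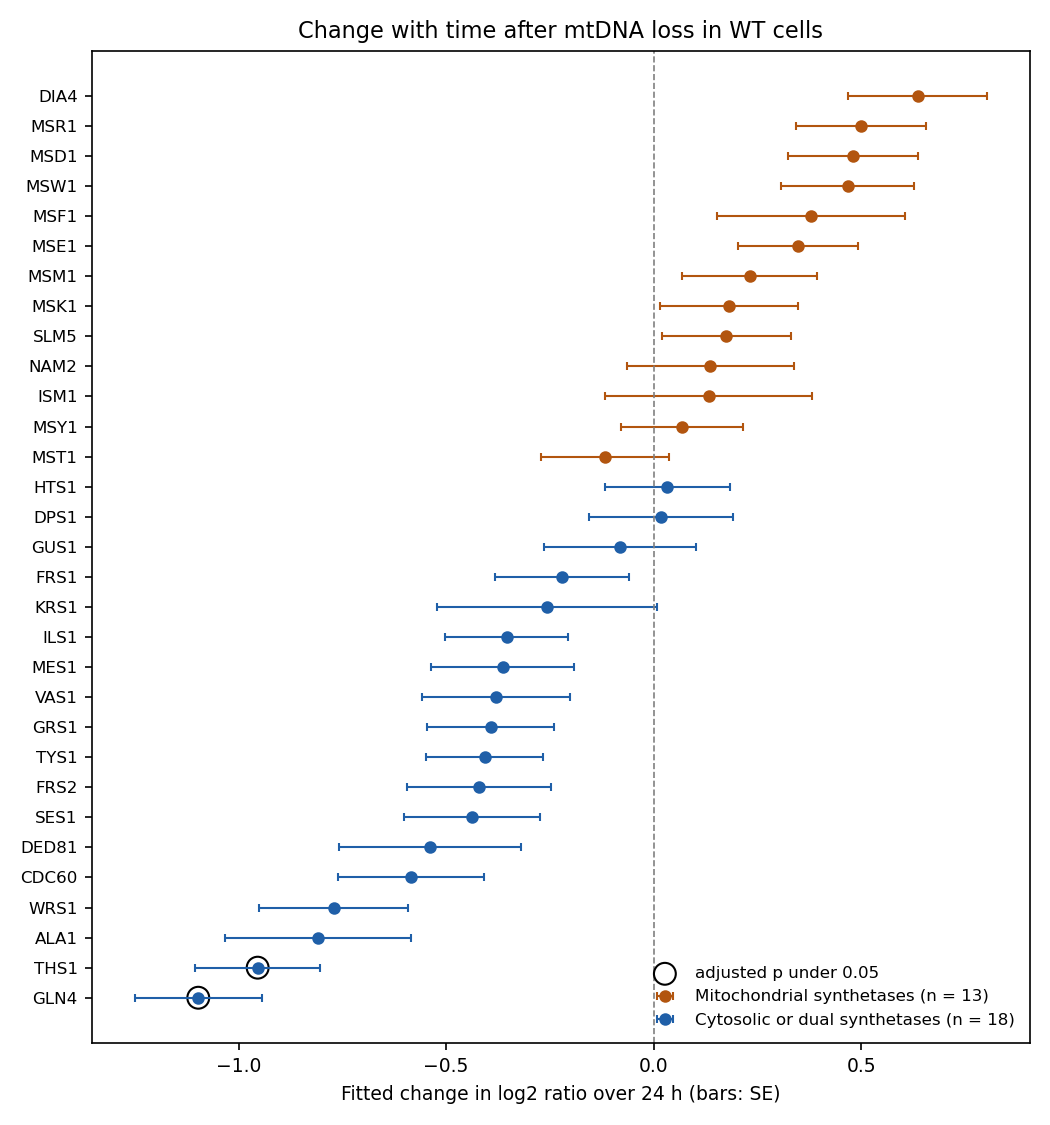
Fitted change in log2 ratio over 24 h in WT cells after mtDNA loss, one point per synthetase gene, with bars of 1 SE from the limma fit. Mitochondrial genes stand above cytosolic or dual ones, and rings mark the 2 genes with an adjusted p under 0.05, GLN4 and THS1. The change is positive for 12 of 13 mitochondrial genes and negative for 16 of 18 cytosolic ones.

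By size, few synthetase genes left the range within 1.5-fold of the control. In WT cells 0 were at least 1.5-fold higher or lower at 3 h (background 2.18% higher and 2.73% lower) and 0 at 11 h (4.42% and 3.84%). At 19 h 2 cytosolic genes, ALA1 and DED81, were at least 1.5-fold lower and 0 genes higher (8.65% higher and 8.29% lower). At 27 h GLN4, ILS1 and THS1 were lower and 0 genes higher (11.1% and 10.5%). These counts were at or under what the background gives for 31 genes.

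Pairs for the same amino acid gave the compartment difference with the amino acid held fixed. For 12 amino acids a mitochondrial gene could be set against its cytosolic counterpart, with FRS1 and FRS2 averaged for MSF1. In ATP1-111 cells the mitochondrial gene had the higher log2 ratio in 11 of 12 pairs, and after NAR1 repression in 7 of 12. In WT cells it was higher in 1 of 12 pairs at 3 h, 11 at 11 h, 12 at 19 h and 12 at 27 h. The median difference, mitochondrial minus cytosolic, was 0.38 in ATP1-111 cells and 0.04 after NAR1 repression, and in WT cells -0.27, 0.24, 0.50 and 0.36 at the 4 times. Among these 12 pairs the widest gaps in WT cells at 27 h were those for tryptophan (MSW1 minus WRS1, 0.88), isoleucine (ISM1 minus ILS1, 0.82) and serine (DIA4 minus SES1, 0.79). The unpaired arginine genes also stood far apart there, with ratios of 1.47 for MSR1 and 0.809 for YDR341C. The isoleucine pair was the only one with a positive difference at 3 h (0.44).

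**Figure D3:**
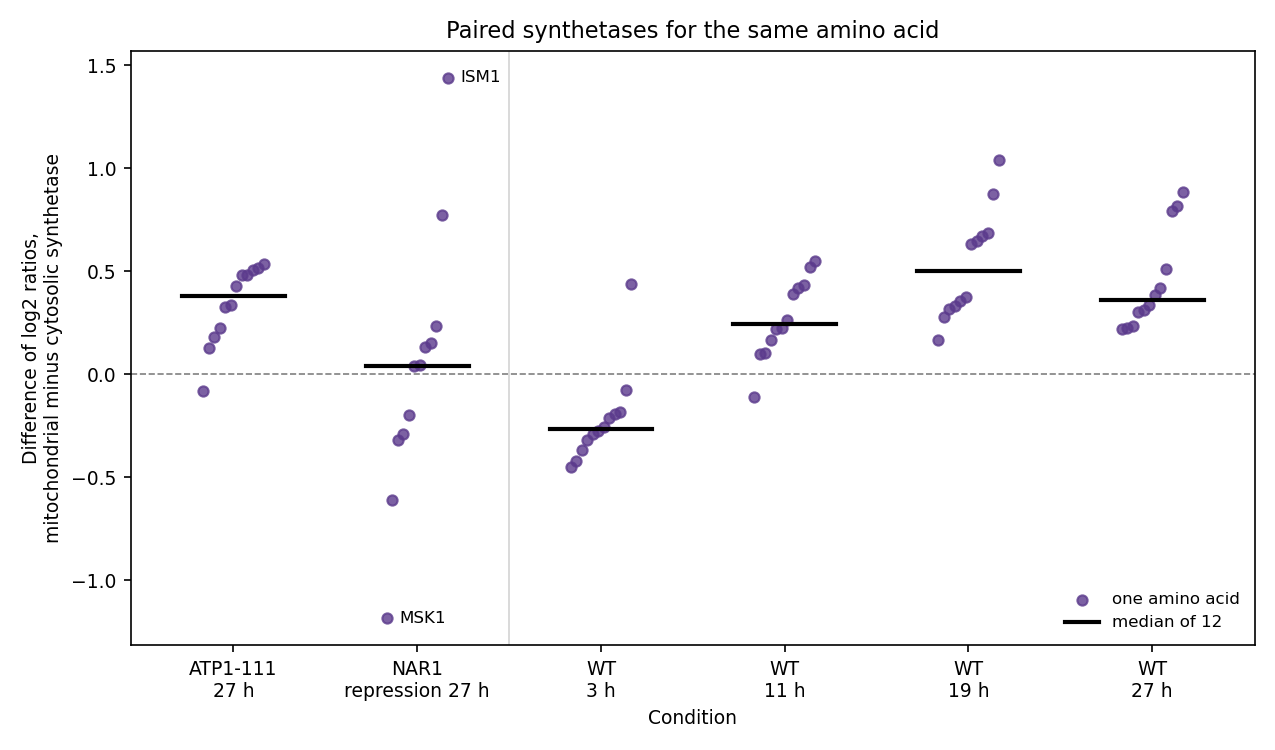
Difference between the log2 ratios of the mitochondrial and the cytosolic synthetase gene for the same amino acid (vertical axis), in 6 conditions (horizontal axis). Each point is 1 of 12 amino acids and each bar is their median. In WT cells the median is -0.27 at 3 h and 0.36 at 27 h, and after NAR1 repression ISM1 and MSK1 mark the extremes, at 1.44 and -1.19.

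In ATP1-111 cells at 27 h the synthetase transcripts of the 2 compartments also lay on opposite sides of the control. The ratio was above the control for 12 of 13 mitochondrial genes and below it for 18 of 18 cytosolic ones, where 46.3% of all reading frames were above and 53.4% below. With the column centred on its median, 17 of the 18 cytosolic genes were below. The median log2 ratio of the mitochondrial genes was 0.15 in ATP1-111 cells and 0.13 in WT cells at 27 h, and that of the cytosolic genes was -0.19 in ATP1-111 and -0.39 in WT cells. The column as a whole was narrower in ATP1-111 cells, with a median absolute deviation of all log2 ratios of 0.11 against 0.28 in WT cells at 27 h. By size, 0 synthetase genes were at least 1.5-fold higher or lower in ATP1-111 cells (background 1.93% and 1.38%).

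GLN4 was the only synthetase gene whose ratio was called different between the strains. Each ratio is to the same strain with mtDNA, so the test compares ratios and not levels. GLN4 had a ratio of 0.968 in ATP1-111 cells and 0.494 in WT cells at 27 h. The log2 difference, ATP1-111 minus the fitted WT level, was 0.96 (SE 0.15, limma adjusted p = 0.0326). In all, the ratio passed as higher in ATP1-111 than in WT cells for 1 synthetase gene and as lower for 0. The background was 3.09% higher and 4.62% lower. At an unadjusted p under 0.05, 4 were higher and 1 was lower, where 942 and 888 of all 6151 reading frames were. The ATP1-111 column is assumed in this test to vary as the WT columns do, and the call was lost with all columns scaled to a common spread (limma adjusted p = 0.16), with time as log2 hours, by ordinary least squares, and without the 11 h, 19 h or 27 h column.

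Other cytosolic genes stood nearer the control in ATP1-111 cells without passing the test. ILS1 had a ratio of 0.873 in ATP1-111 cells and 0.606 in WT cells (difference from the fitted WT level 0.48, SE 0.14, limma adjusted p = 0.0982). THS1 had 0.870 in ATP1-111 cells and 0.610 in WT cells (0.56, SE 0.15, limma adjusted p = 0.0781). The ratio was nearer the control in ATP1-111 than in WT cells for 7 of 13 mitochondrial and 13 of 18 cytosolic genes. These shares, 53.8% and 72.2%, were under the 77.5% of all reading frames. Among the genes further from the control in ATP1-111 cells was KRS1, at 0.770 in ATP1-111 cells and 0.937 in WT cells. Another was NAM2, at 1.25 in ATP1-111 cells and 0.953 in WT cells. Neither difference from the fitted WT level was called (limma adjusted p = 0.851 for KRS1 and 0.421 for NAM2).

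MSR1, whose ratio was the highest of the 31 in WT cells at 27 h, had a ratio of 1.06 in ATP1-111 cells and 1.47 in WT cells at 27 h (difference from the fitted WT level -0.54, SE 0.15, limma adjusted p = 0.0912). ISM1 was the only mitochondrial gene below the control in ATP1-111 cells, at 0.826 against 1.07 in WT cells. The remaining mitochondrial genes lay within a narrow range in ATP1-111 cells, between 1.03 for SLM5 and 1.25 for NAM2. MST1 stood at 1.10 in ATP1-111 cells and 0.769 in WT cells.

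After NAR1 repression both compartments were lower, in contrast to mtDNA loss. The median log2 ratio was -0.39 for the mitochondrial genes, -0.46 for the cytosolic ones and 0.03 for all reading frames. The ratio was below the control for 11 of 13 mitochondrial and 18 of 18 cytosolic genes, where 46.7% of all reading frames were below. By limma's test of the level, 4 of 13 mitochondrial and 8 of 18 cytosolic genes fell and 0 rose in either compartment. That is 38.7% of the synthetase genes lower, against a background of 11.2% lower and 13.3% higher. At an unadjusted p under 0.05, 20 were lower and 0 were higher, where 1140 and 1375 of all 6151 reading frames were. By size, 3 mitochondrial and 4 cytosolic genes were at least 1.5-fold lower and 0 higher (background 10.1% lower and 9.71% higher). Like the ATP1-111 column, this one is assumed to vary as the WT columns do about their line, and with all columns scaled to a common spread 1 mitochondrial and 1 cytosolic gene were called lower. The mitochondrial count was 2 without the 19 h column and 7 without 3 h, the cytosolic count was 3 without 11 h or 19 h, and ordinary least squares called 0 in both compartments.

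MSK1, the mitochondrial lysyl-tRNA synthetase gene, whose product also takes part in importing a cytosolic lysine tRNA into mitochondria, was lowest. Its ratio was 0.332 after NAR1 repression, 1.11 in ATP1-111 cells and 1.09 in WT cells at 27 h. MSK1 fell by 1.59 on the log2 scale after NAR1 repression (SE 0.12, limma adjusted p = 0.00365), and 1.11% of all reading frames were at or below its ratio there. The next lowest was ILS1, at 0.501 after NAR1 repression (SE of its log2 ratio 0.11, limma adjusted p = 0.00745). These 2 were also the synthetase genes still called lower with all columns scaled to a common spread.

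The other mitochondrial genes called lower were MSF1 (ratio 0.598), MST1 (0.642) and MSE1 (0.685), with limma adjusted p from 0.0196 to 0.0334. The other cytosolic genes called lower were GUS1 (0.582), THS1 (0.623), VAS1 (0.682), GRS1 (0.703), GLN4 (0.722), HTS1 (0.724) and TYS1 (0.762). Their limma adjusted p ranged from 0.0165 for THS1 to 0.04999 for TYS1, which lay at the threshold, as did MSD1 (ratio 0.741, limma adjusted p = 0.05005), which was not called. The median log2 ratio was -0.55 for the 5 genes whose products serve both compartments and -0.41 for the 13 purely cytosolic genes, a difference that was not tested. The genes nearest the control were FRS1 (0.991) and MES1 (0.989).

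ISM1 and SLM5 were the 2 synthetase genes above the control after NAR1 repression. ISM1 had a ratio of 1.36 and SLM5 of 1.14, and neither was called (limma adjusted p = 0.138 for ISM1 and 0.287 for SLM5). The isoleucine pair therefore lay furthest apart, with the mitochondrial gene ISM1 at 1.36 and the cytosolic gene ILS1 at 0.501 (log2 difference 1.44). The lysine pair lay furthest apart the other way, with MSK1 at 0.332 and KRS1 at 0.755 (-1.19).

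Set against WT cells at 27 h after mtDNA loss, NAR1 repression differed in the mitochondrial genes. The NAR1 level minus the fitted WT level was called negative for 7 of 13 mitochondrial and 0 of 18 cytosolic genes, and positive for 0 of either. The background was 12.1% lower and 13.9% higher, or 744 and 856 reading frames, which became 908 and 629 with each column centred on its median. At an unadjusted p under 0.05, 8 mitochondrial genes and 1 cytosolic gene were lower and 0 and 1 were higher. At that threshold 1138 of all 6151 reading frames were lower and 1482 higher. The 7 genes were MSK1, MSF1, DIA4, MSR1, MSD1, MSW1 and MSE1. The difference was -1.80 for MSK1 (SE 0.16, limma adjusted p = 0.00489) and -0.84 for both DIA4 and MSR1 (SE 0.16 and 0.15, limma adjusted p = 0.0225 and 0.0198). DIA4 had a ratio of 0.761 after NAR1 repression and 1.32 in WT cells, and MSR1 had 0.857 after NAR1 repression and 1.47 in WT cells. The median difference was -0.70 for the mitochondrial genes, 0.03 for the cytosolic ones and 0.09 for all reading frames. With columns scaled, or without the 19 h column, 1 of the 7, MSK1, was called. The 2 conditions differ in strain, agent and control, so this compares 2 ratios and not 2 levels.

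**Figure D4:**
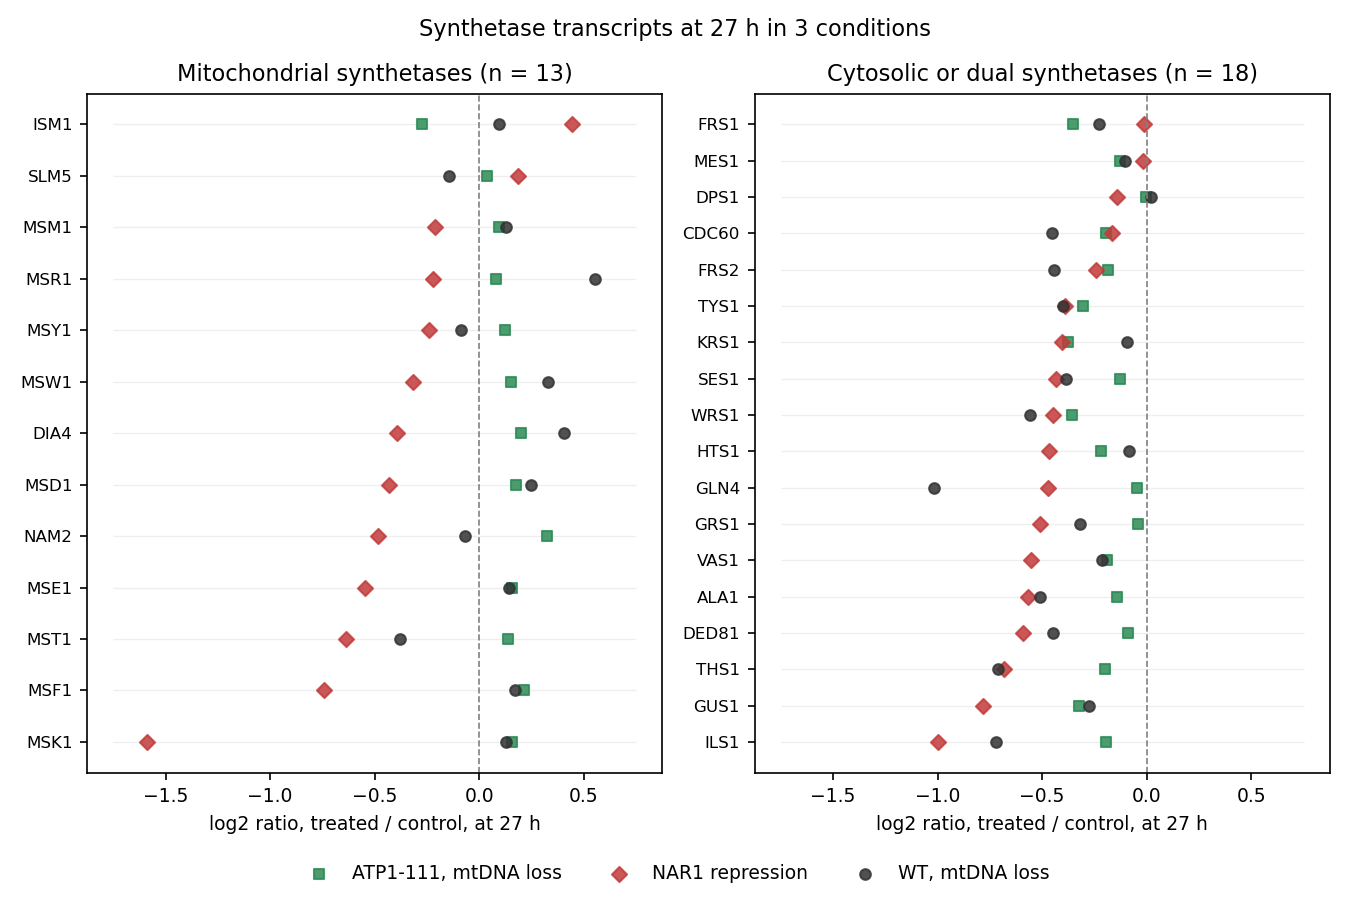
Log2 ratio, treated over control, of each synthetase transcript at 27 h in ATP1-111 cells after mtDNA loss (squares), after NAR1 repression (diamonds) and in WT cells after mtDNA loss (circles). Mitochondrial genes are on the left and cytosolic or dual ones on the right, ordered by the value after NAR1 repression. The diamonds lie below 0 for 11 of 13 mitochondrial and 18 of 18 cytosolic genes, and MSK1 is lowest at -1.59.

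The 2 structural classes of synthetase, whose catalytic domains are unrelated, were set side by side within each compartment. In WT cells at 27 h the median log2 ratio was 0.13 for the 7 class I and 0.15 for the 6 class II mitochondrial genes. It was -0.43 for the 8 class I and -0.35 for the 10 class II cytosolic genes. After NAR1 repression the medians were -0.24 and -0.54 for class I and class II in mitochondria and -0.46 and -0.45 in the cytosol. The class II mitochondrial value rests on 6 genes, MSK1 among them. The reading frames overlapped in length between compartments, at 1140 to 3009 bases for mitochondrial and 1185 to 3315 bases for cytosolic genes. In the RefSeq table of assembly R64, 0 of the 31 genes overlapped another annotated gene.

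Of 5 further synthetase genes and 1 cofactor gene, 0 passed the WT slope test in either direction. YDR341C and YHR020W encode the cytosolic arginyl- and prolyl-tRNA synthetases, and YNL247W encodes a cysteinyl-tRNA synthetase. Ratios in WT cells at 3 and 27 h were 1.11 and 0.809 for YDR341C, 1.23 and 0.723 for YHR020W and 1.08 and 0.712 for YNL247W. AIM10, for the mitochondrial prolyl-tRNA synthetase, had 0.856 and 1.01 at these times, and GRS2, a paralogue of GRS1, had 0.894 and 1.14. ARC1, whose product binds the GUS1 and MES1 enzymes and delivers tRNA to them, had 0.925 and 0.762. ARC1 was called lower after NAR1 repression (ratio 0.701, log2 -0.51, limma adjusted p = 0.0327). It was the only one of the 6, against a background of 11.2% lower.

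Of 10 genes for tRNA amidation, formylation, processing and modification, 7 were above the control in WT cells at 27 h. Over all reading frames 44.5% were above it. Of the 10, 0 passed the WT slope test, and the median log2 ratio was -0.04 at 3 h and 0.27 at 27 h. The 4 furthest from the control at 27 h were SLM3 (tRNA thiolation, ratio 1.36), RPM2 (the protein of mitochondrial RNase P, 0.786), MTO1 (tRNA modification, 1.32) and GTF1 (a subunit of the amidotransferase that makes glutaminyl-tRNA, 1.26). After NAR1 repression 2 of the 10 rose and 0 fell, near the background of 13.3% higher and 11.2% lower. They were CCA1 (which adds the tRNA 3′ end, ratio 1.73, limma adjusted p = 0.013) and SLM3 (1.48, limma adjusted p = 0.0222). Of 8 mitochondrial translation factor genes 0 passed the WT slope test, and their median at 27 h was -0.10. The 4 furthest from the control were MEF1 (ratio 0.689), RRF1 (0.741), AIM23 (0.751) and MRF1 (1.23). After NAR1 repression AIM23 and TUF1, at ratios of 0.581 and 0.571, fell (limma adjusted p = 0.0206 and 0.0364) and 0 rose, 2 of 8 genes against a background of 11.2% lower.

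Of 11 genes for cytosolic elongation factors 2 fell by the WT slope test and 0 rose, TEF4 and HYP2 (limma adjusted p = 0.0439 and 0.0461), against a background of 2.62% lower and 4.63% higher. With columns scaled, by ordinary least squares, or without the 19 h column, 0 of all reading frames passed this test. The median log2 ratio was 0.02 at 3 h and -0.64 at 27 h. HYP2, for translation factor eIF5A, had ratios of 0.736, 0.427, 0.289 and 0.288 at the 4 times. TEF4, for a subunit of the exchange factor of eEF1A, had 1.05, 0.617, 0.460 and 0.435. The other 2 furthest from the control were ANB1, the eIF5A paralogue (0.457), and EFB1, for the catalytic exchange factor subunit (0.548). HYP2 and ANB1, TEF1 and TEF2, and EFT1 and EFT2 are near-identical or closely similar pairs, and a probe may not tell the members of a pair apart. The ratio of HYP2 was called higher in ATP1-111 than in WT cells (0.798 and 0.288, limma adjusted p = 0.0326). Of the 11, 0 were called lower. The background for that comparison was 3.09% higher and 4.62% lower. After NAR1 repression 1 of the 11, EFT2, fell (ratio 0.721, limma adjusted p = 0.0395) and 0 rose. The background there was 11.2% lower and 13.3% higher.

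Genes of the general amino acid control pathway did not pass the WT slope test, 0 of 12 in either direction. The median of the list was 0.13 at 3 h and -0.23 at 27 h. GCN4 had ratios of 0.858, 1.24, 1.32 and 1.46 at the 4 times (fitted log2 change 0.72, limma adjusted p = 0.0799). GCN2 had 0.927, 1.09, 1.19 and 1.41 (0.58, limma adjusted p = 0.0709). GCN4 protein is set by translation, which these arrays do not measure. The other 2 furthest from the control at 27 h were GCD11, for the gamma subunit of eIF2 (0.726), and GCN1 (0.765), which Gcn2 needs to sense uncharged tRNA. GCN4 stood at 1.39 after NAR1 repression and 1.07 in ATP1-111 cells. After NAR1 repression GCD6, for a subunit of the exchange factor eIF2B, rose (ratio 1.499, limma adjusted p = 0.0249). SUI3, for a subunit of eIF2, fell (0.688, limma adjusted p = 0.0269). That is 1 of 12 genes each way, against a background of 13.3% higher and 11.2% lower.

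Of 16 genes of histidine and aromatic amino acid synthesis, a set that holds known Gcn4 targets, 0 passed the WT slope test. Their median log2 ratio was -0.15 at 3 h and -0.38 at 27 h. The 4 furthest from the control at 27 h were HIS1 (ratio 0.466), HIS3 (0.612), HIS6 (0.693) and TRP1 (0.710). After NAR1 repression 6 of 16 fell and 0 rose, against a background of 11.2% lower and 13.3% higher, HIS4 at a ratio of 0.248 and ARO2 at 0.359 being the lowest (limma adjusted p = 0.00219 and 0.00365).

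Some genes of these lists were called different between NAR1 repression and the fitted WT level at 27 h. Of all reading frames 13.9% were called higher and 12.1% lower, so a few calls are what lists of this size give. CCA1 was called higher and MTO1 lower (limma adjusted p = 0.043 and 0.0315) of the 10 genes for tRNA amidation, formylation, processing and modification. MRF1, for the mitochondrial release factor, was the only call of the 8 translation factor genes, at a ratio of 0.706 after NAR1 repression and 1.23 in WT cells (limma adjusted p = 0.0251). Of the 11 elongation factor genes HYP2 and EFB1 were called higher and HEF3 lower (limma adjusted p = 0.0117, 0.0421 and 0.0179). GCD6 and GCN20 were called higher of the 12 amino acid control genes (limma adjusted p = 0.0241 and 0.0253). Of the 16 histidine and aromatic genes 2 were called higher, HIS3 and HIS7, and 4 lower.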

How the data were processed

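RNA of treated and control cells was compared on dye-swapped 2-colour arrays. Per the labels, the deposited values are linear ratios, treated over control, averaged by the authors over arrays; the normalization and the kind of average are not given in the sources used here. From 6259 rows, 28 control rows were left out, 13 genes with 2 spots were averaged, and 6151 of 6205 reading frames had a ratio in all 6 conditions. Symbols came from the RefSeq table of assembly R64, which matched 5705 frames and left 500 unmatched. No genome build is named for the array, so no coordinates are given.

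The log2 of each ratio was fitted with limma 3.58.1 in R 4.3.3: a WT level at 27 h, a WT change with time scaled to 24 h, and 1 term each for ATP1-111 and NAR1 repression. Each condition is 1 column, so the spread comes from 2 residual degrees of freedom, the WT points about their line, moderated by a prior of 3.35. P-values were adjusted by Benjamini-Hochberg over 6151 frames. They measure scatter between times, not between cultures.

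The 31 genes and the other gene lists were chosen with earlier results of these data known. Named genes were all 31, up to 4 of each list furthest from the control in WT cells at 27 h, those past a test where 5 or fewer were, and GCN4, GCN2, ARC1 and NAR1. Alternatives were time as log2 hours, columns centred or scaled, ordinary least squares, robust moderation, no filter on missing values, a 2-fold limit, and leaving out each WT time.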

Additional observations from a re-analysis of the deposited data

Results flagged for a closer look

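For GLN4 the test of the difference between the 2 strains passed the threshold as reported. Its log2 ratio at 27 h after mtDNA loss was higher by 0.96 in ATP1-111 cells than the fitted level in WT cells (limma adjusted p = 0.0326), with ratios of 0.968 in ATP1-111 cells and 0.494 in WT cells. The difference stayed positive, at 0.67 to 0.99, under the alternatives, but the call was lost under several. The limma adjusted p was 0.0678 with time as log2 hours, 0.16 with columns scaled to a common spread, and 0.0536, 0.103 and 0.0986 without the 11 h, 19 h and 27 h column. By ordinary least squares the adjusted p was 0.215. ATP1-111 has 1 column, assumed to vary as the WT columns do about their line, while the median absolute deviation over all reading frames was 0.11 in ATP1-111 cells and 0.28 in WT cells at 27 h. The cause was not tested.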

How the results depend on the processing

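No paired analysis was possible because each condition is 1 column of averaged ratios. With columns scaled to a common spread, and by ordinary least squares without moderation, 0 cytosolic genes fell with time in WT cells (2 as reported). Under both, 0 had a higher ratio in ATP1-111 than in WT cells (1 as reported, and 0 with time as log2 hours). The genes called lower after NAR1 repression numbered 1 mitochondrial and 1 cytosolic with scaled columns and 0 and 0 by ordinary least squares (4 and 8 as reported). Those lower than WT were 1 mitochondrial gene with scaled columns and 0 by ordinary least squares (7 as reported). Ordinary least squares called 0 of all reading frames in each of the 4 comparisons. With scaled columns, the reading frames called higher and lower were 0 and 0 for the WT slope, 5 and 26 for ATP1-111 minus WT, 61 and 116 for NAR1 repression, and 65 and 172 for NAR1 repression minus WT, against 285 and 161, 190 and 284, 819 and 686, and 856 and 744 as reported.

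Leaving out 1 WT time left 0 to 1 cytosolic genes falling with time (1 without 11 h, 0 without any other). It left 0 to 1 with a higher ratio in ATP1-111 than in WT cells (1 without 3 h, 0 without any other). It left 2 to 7 mitochondrial genes lower after NAR1 repression (2 without 19 h, 7 without 3 h) and 3 to 11 cytosolic ones (3 without 11 h or 19 h, 11 without 3 h or 27 h). The mitochondrial genes lower than WT after NAR1 repression numbered 1 to 7 (1 without 19 h, 4 without 11 h). These fits have fewer points.

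Counts at 1.5-fold were as follows where they moved. At 19 h in WT cells, 0 cytosolic genes were lower with columns centred, scaled or at 2-fold, and 1 mitochondrial gene was higher with columns centred. At 27 h in WT cells, 1 cytosolic gene was lower with columns scaled or at 2-fold, and 1 mitochondrial gene was higher with columns centred. The cytosolic median at 27 h was -0.24 with columns scaled. In ATP1-111 cells, 1 mitochondrial gene was higher and 2 cytosolic genes were lower with columns scaled. After NAR1 repression, 1 mitochondrial and 2 cytosolic genes were lower with columns scaled, and 1 and 0 at 2-fold. The sign counts with centred columns and of the fitted change under each fit were added after seeing the data.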
